A study of Caenorhabditis elegans with 24 samples.

Results

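The comparison described here set mRNA recovered from the whole nervous system of Caenorhabditis elegans larvae against RNA of all larval cells, and it comprised 8 of the 24 samples of the series. The samples were taken by their titles as 3 larval pan-neural arrays and 5 larval reference arrays. The larval pan-neural arrays held RNA from mid-L2 larvae of the strain SD1241, in which the integrated transgene gaIs153 expresses FLAG::PAB-1, a poly(A)-binding protein with a FLAG epitope, under the promoter of F25B3.3, also named rgef-1. The construct was injected together with a sur-5::GFP marker before integration. The larval reference arrays held the low level of RNA that stuck to the anti-FLAG beads in mock pull-downs from wild-type N2 larvae of the same stage, without a transgene. All animals were fixed in formaldehyde before the pull-down, all RNA was amplified in 2 rounds and labelled with biotin, and the titles call each array a biological replicate. The pan-neural arrays came from 1 transgenic line, and RNA bound to the beads without the tag was also part of them. In such RNA, fewer cells of a type and less of a transcript per cell cannot be told apart.

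PAB-1 coats the poly(A) tails of mRNA in the cytoplasm, so a tagged copy made in neurons carries down neuronal transcripts from a lysate of the whole worm. By the second larval stage nearly all neurons of the animal have been born, and most are classed by the transmitter they release, chiefly acetylcholine, GABA, glutamate or a monoamine. Identity of a neuron is held by homeobox and other transcription factors, and its inputs are set by the receptors and channels it makes. Peptides, synaptic vesicle genes, touch neuron genes and cilium genes were set aside here, and the genes described are those of transmitter use, receptors, channels, signalling, chemoreception, transcription, wiring and the tissues outside the nervous system.

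Intensities are given as the linear values of robust multi-array analysis (RMA), and changes as the log2 of larval pan-neural over larval reference with the standard error (SE) of the fit. A gene was called higher or lower where limma gave a Benjamini-Hochberg adjusted p under 0.01 over 22548 probe sets and the change was at least 1.5-fold. Each of 17118 genes was represented by its brightest probe set. By this rule 1159 genes (6.77%) were higher and 623 genes (3.64%) were lower in the larval pan-neural sample, and the median change over all genes was 0.0007. Of the probe sets, 1372 (6.08%) were higher and 754 (3.34%) were lower. The 2 groups did not overlap for 4425 genes (25.8%), of which 2313 (13.5%) had all pan-neural arrays above and 2112 (12.3%) all below the references. Most called genes named below were picked by a rule that required such separation, so for them it adds no evidence. Calls were sparse among dim genes, with 53 higher (1.22%) and 9 lower (0.207%) among the 4348 genes whose mean log2 intensity was under 5, which is 32 on the linear scale and is called the floor below. Squared correlations were 0.952 to 0.981 within the pan-neural arrays, 0.951 to 0.983 within the references and 0.848 to 0.953 between them. By the array records, pan-neural replicates 2 and 3 were hybridized together with references 4 and 5, and the other arrays on other occasions without a partner of the other group. Within that batch of 4 arrays, a comparison chosen after seeing the data, no gene passed the adjusted p, while all 1159 higher and all 623 lower genes kept their direction and 1112 and 577 of them stayed at least 1.5-fold apart, with 1154 and 618 at an unadjusted p under 0.05 in limma. These 4 arrays were among the 8 on which the genes were called, so such agreement was largely fixed in advance and cannot exclude a batch effect. With the batch as a fixed block in the fit over all 8 arrays, 330 genes were higher and 34 lower, of which 325 and 22 were among the genes above. The change in that fit again came only from the batch of 4 arrays. It is therefore no separate check, and its overlap with the genes above was likewise largely fixed in advance.

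Of 8 neuronal markers 6 were higher, and their summed intensity was 12475 to 16757 on the pan-neural arrays against 3897 to 5992 on the references. The vesicle protein synaptotagmin, snt-1, was at 1597, 1363 and 1597 on the pan-neural arrays and at 411, 461, 483, 346 and 499.8 on the reference arrays (log2 change 1.80 ± 0.13, adjusted p = 3.95e-05). The remaining neuronal markers, unc-64 and unc-31, were dim, with log2 changes of -0.46 ± 0.33 and 0.25 ± 0.11. The marker lists of 7 other cell types held 8 called genes, all lower, over 37 genes, and the 3 coelomocyte markers stood the other way, with 1 called higher and a summed intensity of 500 to 802 on the pan-neural arrays against 362 to 475 on the references. The summed intensity of body wall muscle markers was 4374 to 7222 against 7731 to 11247 and that of hypodermal markers 4248 to 6051 against 7835 to 11348, in the same order of groups. The markers hlh-1 of muscle, vit-2 of the intestine, col-19 of the adult hypodermis and nos-2 of the germline were near the floor in both groups. The probe set of rgef-1, whose promoter drove the tag, was also at the floor, with 11.8, 11.7 and 11.4 on the pan-neural arrays and 11.3, 12.5, 12.6, 10.6 and 10.9 on the references, and so gave no check of the labels. The tagged gene pab-1 was at 7259, 5339 and 7673 on the pan-neural arrays and at 1514, 2245, 2381, 4389 and 3418 on the references, above the references on every array but short of a call (log2 change 1.35 ± 0.31, adjusted p = 0.0141). Another of its probe sets was called (log2 change 0.91 ± 0.13, adjusted p = 0.00154), and the last was not (log2 change 0.40 ± 0.10, adjusted p = 0.0224).

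**Figure D1:**
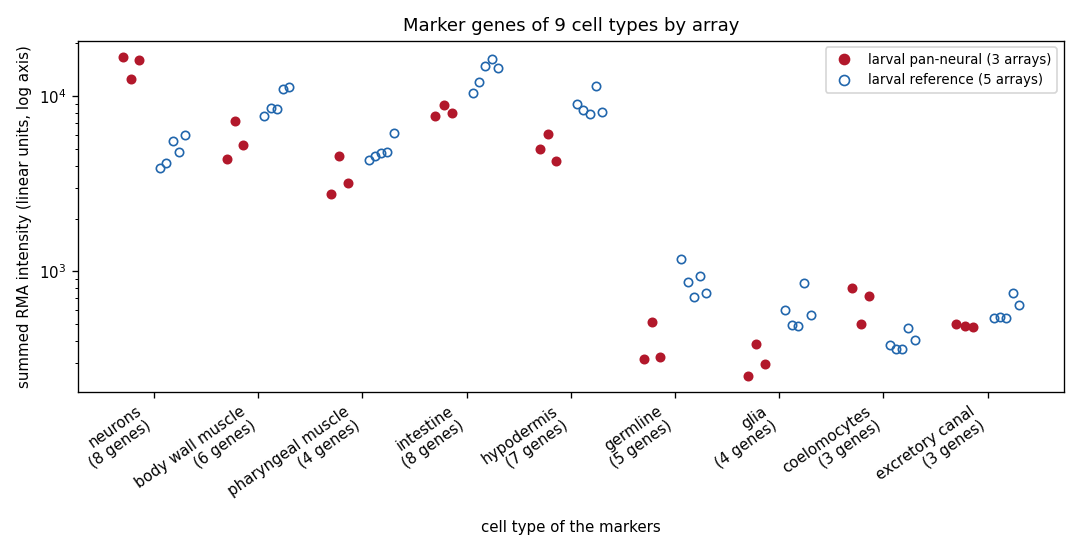
Summed RMA intensity (log axis) of the marker genes of 9 cell types on each array, with the 3 larval pan-neural arrays as filled circles left of the 5 larval reference arrays as open circles. Neuronal and coelomocyte sums sit higher on every pan-neural array than on any reference, and the sums of the other 7 cell types sit lower, with overlap in pharyngeal muscle.

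Largest among all called genes outside the peptide, synapse, touch and cilium lists were genes with little known function beside familiar neuronal ones. The 10 with the largest increases were C33A12.4, glr-5, droe-4, C54G4.5, hot-7, ZK994.6, tdc-1, F09E10.7, dat-1 and T19D7.5, with log2 changes of 2.80 to 3.35. ZK994.6 was at 263, 236 and 255 on the pan-neural arrays and at 30.6, 32.8, 30.4, 33.4 and 36.9 on the references (log2 change 2.94 ± 0.10, adjusted p = 2.73e-06), so its reference level lay close to the floor. hot-7, a homologue of the olfaction gene odr-2, was at 1237, 869.7 and 1295 on the pan-neural arrays and at 119.3, 159, 113, 142 and 189 on the references (log2 change 2.98 ± 0.20, adjusted p = 1.92e-05). F09E10.7 was at 1753, 1112 and 1215 on the pan-neural arrays and at 167, 196, 156, 216 and 202 on the references (log2 change 2.84 ± 0.17, adjusted p = 1.32e-05). In these 3 genes the lowest pan-neural array stood several times above the highest reference. Among the 10 with the largest decreases, mmcm-1, the methylmalonyl-CoA mutase of propionate breakdown, was the most even across arrays. It was at 229, 262 and 259 on the pan-neural arrays and at 1490, 1170, 1646, 1251 and 1382 on the references (log2 change -2.47 ± 0.13, adjusted p = 7.57e-06). The other 9 were spread more widely over the references, as in sym-1, a leucine-rich repeat protein of the epidermal surface, with 75.9, 137 and 161 on the pan-neural arrays and 768, 615, 392, 1164 and 477 on the references (log2 change -2.42 ± 0.36, adjusted p = 0.00164). Leaving out 1 array at a time took away the call of none of these 10 increases and of 7 of the 10 decreases, the exceptions being mmcm-1, sym-1 and wrt-10.

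Of the genes that make, load or recover a transmitter, some were higher in the pan-neural sample for each of acetylcholine, GABA and the monoamines, and a single one for glutamate. Of 34 such genes 13 were higher (38.2%, against 6.77% of all genes) and 1 was lower. For acetylcholine, cha-1, the choline acetyltransferase, was at 971, 499 and 816 on the pan-neural arrays and at 107, 82.1, 131, 94.95 and 139 on the references (log2 change 2.75 ± 0.24, adjusted p = 8.35e-05). The vesicular acetylcholine transporter unc-17 was at 1554, 757 and 1069 on the pan-neural arrays and at 209, 239, 273, 249 and 278 on the references (log2 change 2.12 ± 0.21, adjusted p = 0.000157). These genes lie in 1 locus with shared 5′ sequence and both were read by probe sets marked as open to cross-hybridization, so their values are not independent. The choline transporter cho-1 was at 212, 146 and 213 on the pan-neural arrays and at 78.3, 61.6, 59.2, 64.7 and 80.3 on the references (log2 change 1.46 ± 0.16, adjusted p = 0.00033). Of the acetylcholinesterases, which break the transmitter down, ace-3 was higher (0.87 ± 0.16) and ace-1 was not called (-0.73 ± 0.33). ace-3 was not called in 6 of the 8 fits that left out 1 array, any array but pan-neural replicate 2 and reference 5 (adjusted p up to 0.0233).

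For GABA, 4 of 6 genes were higher, with a median change of 1.13. The glutamic acid decarboxylase unc-25 was at 1364, 919 and 1452 on the pan-neural arrays and at 221, 244, 171, 344 and 321 on the references (log2 change 2.28 ± 0.24, adjusted p = 0.000265). The vesicular GABA transporter unc-47 was at 332, 295 and 404 on the pan-neural arrays and at 124, 156, 121.6, 113 and 182 on the references (log2 change 1.32 ± 0.18, adjusted p = 0.000908). Both were separated from the references on every array, as was unc-46, which sorts UNC-47 to vesicles (0.95 ± 0.13), and unc-30, the homeobox gene of GABA motor neurons (1.43 ± 0.12). The reuptake transporter snf-11 was not called (0.84 ± 0.23, adjusted p = 0.0345). For glutamate, only the vesicular transporter eat-4 was called among 9 genes. It was at 739.6, 467 and 581 on the pan-neural arrays and at 104, 99.1, 112, 86.2 and 102 on the references (log2 change 2.55 ± 0.15, adjusted p = 1.32e-05). The plasma membrane glutamate transporter glt-1 was bright in both groups and was not called (-0.29 ± 0.16).

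For the monoamines, 4 of 11 genes were higher and 1 was lower. The tyrosine decarboxylase tdc-1, which makes tyramine in a few neurons, was at 304, 312 and 358 on the pan-neural arrays and at 46.7, 45.8, 38.5, 45.5 and 44.6 on the references (log2 change 2.88 ± 0.10, adjusted p = 2.73e-06). The dopamine transporter dat-1 was at 1054, 859 and 962 on the pan-neural arrays and at 101, 130.5, 162, 102 and 224 on the references (log2 change 2.80 ± 0.25, adjusted p = 9.43e-05). The vesicular monoamine transporter cat-1 was at 229, 155 and 208 on the pan-neural arrays and at 90.8, 80.5, 97.6, 103 and 104 on the references (log2 change 1.04 ± 0.14, adjusted p = 0.00114). All 3 were separated on every array, although the other probe sets of tdc-1 gave 0.05 ± 0.09 and 0.61 ± 0.15 and were not called. The fourth was oct-1, an organic cation transporter (0.96 ± 0.13). Enzymes that supply the tetrahydrobiopterin cofactor of monoamine synthesis stood apart from these, since ptps-1 was lower (-1.07 ± 0.20) and cat-4 was not called (-0.43 ± 0.19). ptps-1 was not called in 4 of the 8 fits that left out 1 array, pan-neural replicates 1 and 3 and references 1 and 5 (adjusted p up to 0.0301).

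**Figure D2:**
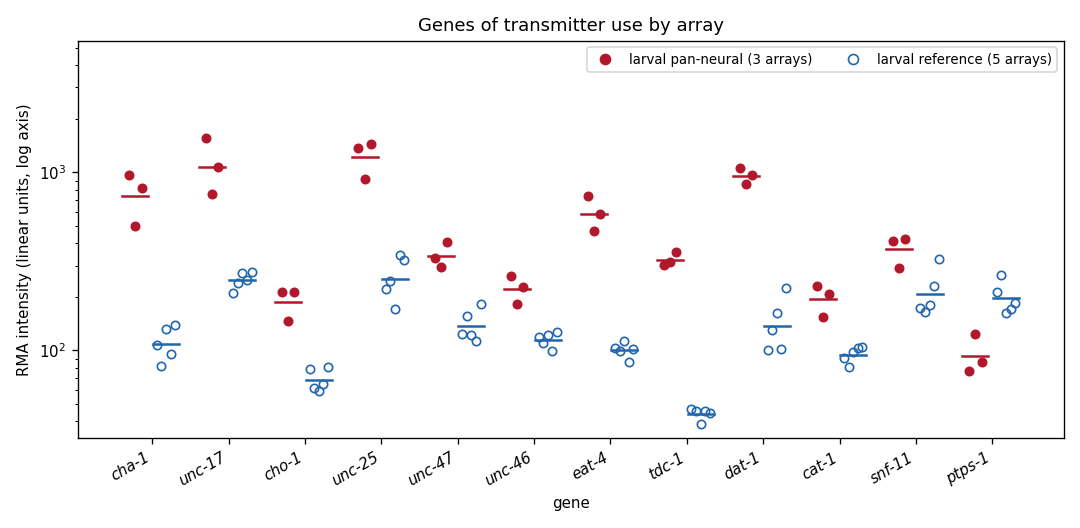
RMA intensity (log axis) of 12 genes of transmitter use on each array, with the 3 larval pan-neural arrays as filled circles left of the 5 larval reference arrays as open circles; horizontal bars are the means of the log2 values. In 10 of the genes all pan-neural arrays lie above all references; snf-11 overlaps and ptps-1 lies below.

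Of the classes described here, receptors for transmitters and peptides had the largest share of genes called higher. Of 231 receptor genes 98 were higher (42.4%) and none was lower in limma, where 15 had a decrease at an unadjusted p under 0.05. The ionotropic glutamate receptor list had 8 of 14 genes higher and a median change of 1.21. glr-5, a non-NMDA subunit, was at 1873, 1570 and 2263 on the pan-neural arrays and at 199.6, 230, 190.5, 232 and 229.9 on the references (log2 change 3.13 ± 0.13, adjusted p = 3.95e-06). glr-1, the AMPA-type subunit of the locomotory command interneurons, was at 602, 479 and 720.1 on the pan-neural arrays and at 149, 116, 116, 159.5 and 169.7 on the references (log2 change 2.08 ± 0.18, adjusted p = 7.44e-05). Its auxiliary CUB-domain protein sol-1 was at 189, 174 and 219 on the pan-neural arrays and at 28.6, 39.3, 34.8, 34.9 and 39.6 on the references (log2 change 2.46 ± 0.13, adjusted p = 9.65e-06). The receptor and its partner thus both stood above every reference, sol-1 from a reference level just over the floor. The subunit glr-8 was not called (0.09 ± 0.10).

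Of 28 nicotinic receptor subunits 12 were higher, and the list had a median change of 0.41. acr-15, an alpha-type subunit, was at 127, 98.0 and 114 on the pan-neural arrays and at 20.4, 24.7, 18.03, 30.6 and 20.6 on the references (log2 change 2.32 ± 0.17, adjusted p = 3.81e-05), where the references were at or below the floor and the size of the change is rough. deg-3, a subunit of a choline-gated channel, was at 894, 608 and 798 on the pan-neural arrays and at 262, 238, 222, 223 and 244 on the references (log2 change 1.67 ± 0.13, adjusted p = 4.77e-05). acr-19 changed by 1.72 ± 0.16. The levamisole receptor subunit lev-1, which works in body wall muscle and in motor neurons, was the brightest subunit not called (0.29 ± 0.17), with groups that overlapped. Of 8 genes of receptor assembly 2 were higher, the receptor-clustering protein lev-10 (0.73 ± 0.09) and the chaperone ric-3 (0.84 ± 0.16), and nra-2 of the endoplasmic reticulum was not called (-0.42 ± 0.11). ric-3 was not called in 6 of the 8 fits that left out 1 array, any array but references 4 and 5 (adjusted p up to 0.0273).

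Chloride channels opened by transmitters were higher for 7 of 13 genes, with a median change of 0.87. acc-4, an acetylcholine-gated chloride channel subunit, was at 418, 289.8 and 505 on the pan-neural arrays and at 83.1, 114, 96.4, 89.2 and 124 on the references (log2 change 1.98 ± 0.19, adjusted p = 0.000167). mod-1, the serotonin-gated chloride channel, was at 160.3, 130.4 and 205 on the pan-neural arrays and at 58.5, 47.5, 47.2, 70.3 and 63.1 on the references (log2 change 1.52 ± 0.18, adjusted p = 0.000474). glc-4, of the glutamate-gated chloride channels, changed by 1.52 ± 0.20. The 3 genes did not overlap between groups, whereas unc-49, the GABA receptor of body wall muscle, was separated but not called (0.72 ± 0.19, adjusted p = 0.028). Among 46 further cys-loop channel genes 12 were higher, led by lgc-39 (1.45 ± 0.11), lgc-4 (1.44 ± 0.13) and lgc-37 (1.43 ± 0.15), and the brightest that was not called, lgc-34, was at -0.87 ± 0.25.

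G protein coupled receptors for acetylcholine and the monoamines were higher for 15 of 21 genes, with a median change of 1.05. The serotonin receptor ser-4 was at 798, 764 and 774 on the pan-neural arrays and at 171, 151, 204, 146 and 213 on the references (log2 change 2.15 ± 0.14, adjusted p = 1.84e-05). The octopamine receptor ser-3 was at 173, 258 and 349.9 on the pan-neural arrays and at 53.9, 60.7, 65.4, 61.2 and 63.4 on the references (log2 change 2.04 ± 0.19, adjusted p = 0.000134). dop-5, a receptor related to those for dopamine, changed by 2.03 ± 0.20. None of these overlapped, although the second probe set of ser-4, near the floor, gave -0.16 ± 0.08 and was not called. The muscarinic receptor gar-3 was not called by its brightest probe set (0.45 ± 0.16) and was called by its second (log2 change 0.63 ± 0.12, adjusted p = 0.00718), while the other, dimmer one was not. Receptors for peptides were higher for 42 of 101 genes. npr-25 was at 305, 236 and 418 on the pan-neural arrays and at 68.1, 59.3, 70.6, 74.8 and 83.3 on the references (log2 change 2.14 ± 0.18, adjusted p = 7.2e-05), and the next largest changes were those of npr-2 (2.01 ± 0.16) and tkr-3, of the tachykinin receptor family (1.87 ± 0.10). The glycoprotein hormone receptor homologue fshr-1 was the brightest not called (-0.58 ± 0.19).

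**Figure D3:**
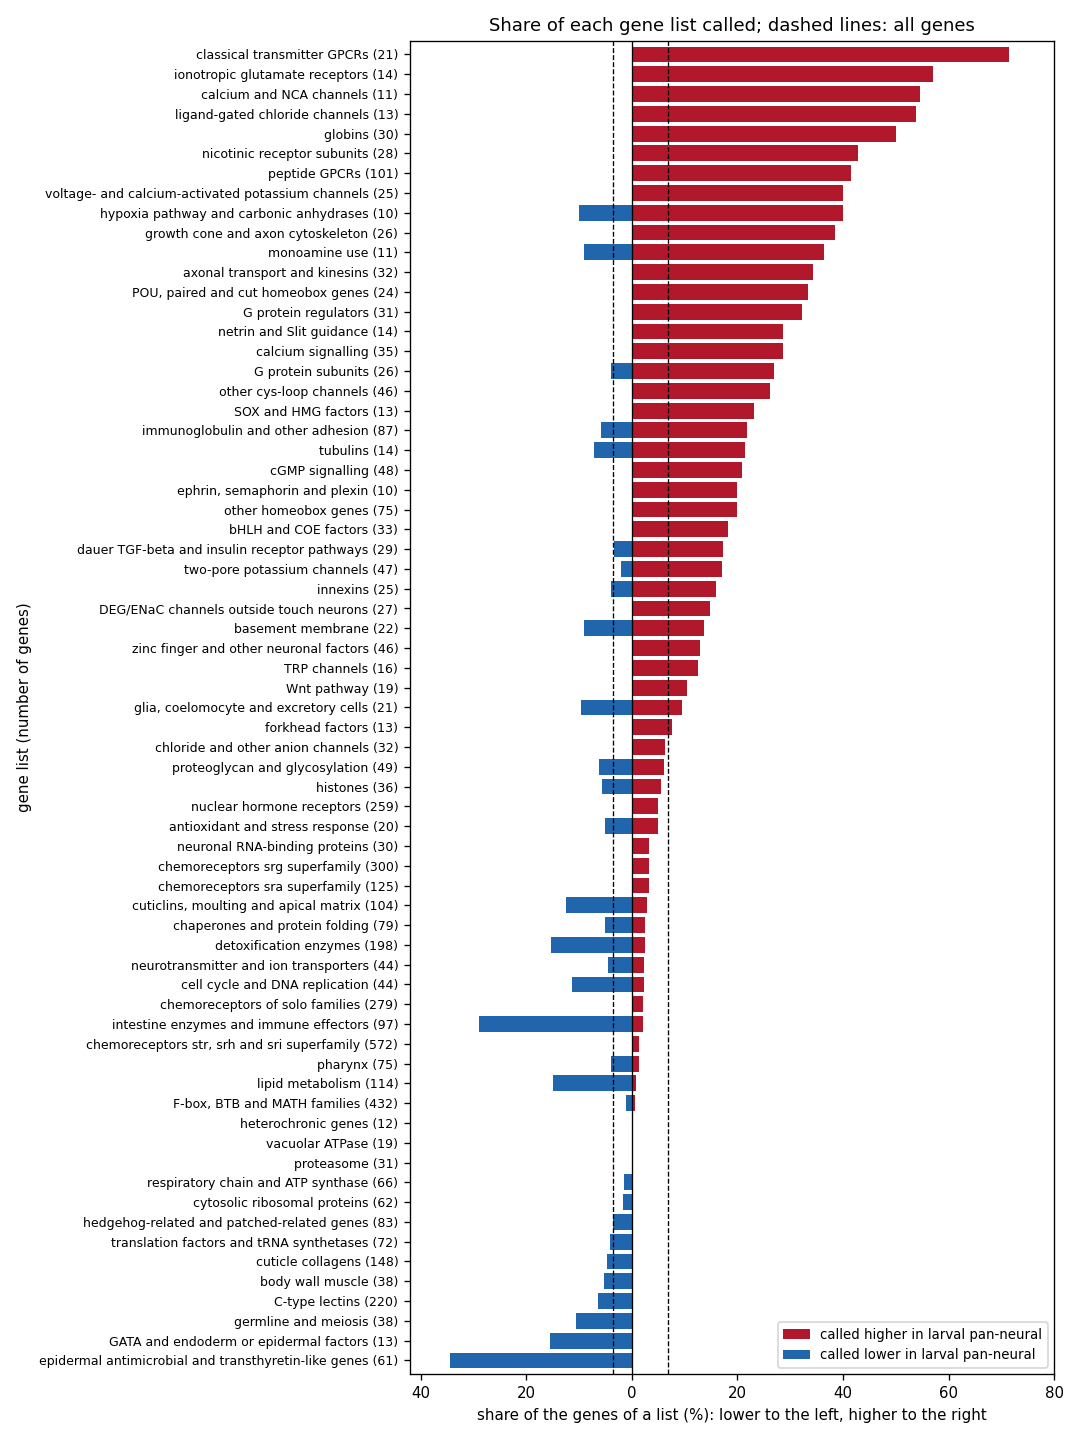
Share of genes called higher (right, %) and lower (left, %) in larval pan-neural against larval reference for the gene lists described here that have at least 10 genes, with dashed lines at the shares over all genes of 6.77% higher and 3.64% lower. The G protein coupled receptors for classical transmitters reach the largest share higher, 71.4%, and the epidermal antimicrobial and transthyretin-like genes the largest share lower, 34.4%.

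Ion channel families differed in how many of their members were called. Of 192 channel genes 40 were higher (20.8%) and 2 were lower. Of 25 voltage-gated and calcium-activated potassium channels 10 were higher, led by the voltage-gated kvs-2 with 160.4, 144 and 242 on the pan-neural arrays and 39.8, 45.02, 39.3, 46.7 and 63.98 on the references (log2 change 1.94 ± 0.20, adjusted p = 0.000244). kcnl-4, of the small-conductance calcium-activated channels, was at 266, 244 and 396 on the pan-neural arrays and at 82.8, 86.3, 83.8, 93.7 and 87.2 on the references (log2 change 1.77 ± 0.15, adjusted p = 7.38e-05). Two-pore potassium channels, which carry background current, were higher for 8 of 47 genes, with a median of 0.13. In that family twk-49 was at 1052, 826 and 1005 on the pan-neural arrays and at 159.5, 188, 196, 329 and 304 on the references (log2 change 2.08 ± 0.24, adjusted p = 0.000408). The groups were apart in each of these genes, while the muscle channel twk-18 was below the references on every array but was not called (-0.93 ± 0.22, adjusted p = 0.0166). Its second probe set was called lower (-0.89 ± 0.17). Voltage- and calcium-activated potassium channels called higher numbered 6 without pan-neural replicate 3. Two-pore potassium channels called lower numbered 4 without pan-neural replicate 2.

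The presynaptic calcium channel and the proteins that assemble it were higher together. unc-2, the pore of the CaV2 channel, was at 219, 235 and 248 on the pan-neural arrays and at 82.8, 80.8, 96.5, 56.4 and 85.0 on the references (log2 change 1.56 ± 0.16, adjusted p = 0.000209). calf-1, an endoplasmic reticulum protein that UNC-2 needs to leave the cell body, was at 466, 196 and 419 on the pan-neural arrays and at 62.5, 86.6, 84.5, 124 and 79.1 on the references (log2 change 1.98 ± 0.30, adjusted p = 0.00169). tag-180, an alpha2delta subunit, was at 399.9, 434 and 564 on the pan-neural arrays and at 149, 177, 191, 219 and 192 on the references (log2 change 1.32 ± 0.15, adjusted p = 0.000372). Each of the 3 was above all references, and egl-19, the CaV1 channel that muscle also uses, was not called (0.72 ± 0.19). In all 6 of 11 calcium and sodium leak channel genes were higher, the others being the leak channel partners unc-79 (1.09 ± 0.22) and unc-80 (0.85 ± 0.12) and the beta subunit gene ccb-2 (0.65 ± 0.14), which were named after their values were seen. calf-1 and unc-80 lost their calls in 1 fit or more as pan-neural replicates 1 and 3 were left out in turn (adjusted p up to 0.0123 and 0.0105). unc-79 and ccb-2 were not called in 5 to 6 of the 8 fits that left out 1 array, any array but pan-neural replicate 2 (adjusted p up to 0.0441 and 0.0538). Calcium and NCA channels called higher numbered 3 without pan-neural replicate 1 and 2 without pan-neural replicate 3.

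Mechanically and chemically gated families gave fewer calls, apart from the stomatins. DEG/ENaC channels outside the touch neurons were higher for 4 of 27 genes, namely del-4 (1.41 ± 0.10), del-1 (1.38 ± 0.15), asic-1 (1.01 ± 0.13) and, named after its value was seen, degt-1 (1.01 ± 0.18), with a median over the list of 0.01. Stomatins, membrane proteins that tune such channels, were higher for 4 of 9 genes, and sto-4 was at 1853, 1647 and 2077 on the pan-neural arrays and at 494, 523, 637, 728 and 712 on the references (log2 change 1.60 ± 0.15, adjusted p = 0.000144). The other stomatins called were unc-1 (1.35 ± 0.25), sto-6 (1.10 ± 0.17) and, outside the rule for named genes, sto-2 (0.84 ± 0.13). Of 16 TRP channels 2 were higher, trp-1 (1.16 ± 0.12) and ocr-4, whose reference level was under the floor (0.74 ± 0.14). Of 32 chloride and other anion channels 2 were higher, the ClC channel clh-2 (1.53 ± 0.19) and the bestrophin best-18 (1.00 ± 0.15). The shares higher were 44.4% of stomatins, 14.8% of DEG/ENaC channels, 12.5% of TRP channels and 6.25% of anion channels, against 6.77% of all genes. sto-2 and best-18 lost their calls in 1 fit or more as pan-neural replicates 1 and 3 were left out in turn (adjusted p up to 0.0123 and 0.0124). degt-1, unc-1 and ocr-4 were not called in 4 to 7 of the 8 fits that left out 1 array, any array (adjusted p up to 0.0159, 0.0297 and 0.0253). Stomatins called higher numbered 2 without pan-neural replicate 3. Chloride and other anion channels called higher numbered 4 without pan-neural replicate 2.

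Innexins, the subunits of gap junctions in invertebrates, had 4 members higher and 1 lower. The shares were 16.0% and 4.0%, against 6.77% and 3.64% of all genes. unc-9, which couples neurons and also muscle cells, was at 1248, 1025 and 1500 on the pan-neural arrays and at 404, 550.1, 555, 387 and 638 on the references (log2 change 1.32 ± 0.19, adjusted p = 0.00146). inx-19, which acts between olfactory neurons in the embryo, was at 105, 96.3 and 106 on the pan-neural arrays and at 42.7, 45.9, 42.6, 55.6 and 43.4 on the references (log2 change 1.16 ± 0.11, adjusted p = 0.000134). inx-15 went the other way, with 224, 320.3 and 367 on the pan-neural arrays and 549.6, 565, 587, 686 and 699 on the references (log2 change -1.04 ± 0.16, adjusted p = 0.00217). The groups were separate for all 3. che-7 (1.47 ± 0.30) and, outside the rule, inx-1 (0.97 ± 0.15) were also higher, and the median over 25 innexins was -0.17. unc-9 and inx-1 lost their calls in 1 fit or more as pan-neural replicates 1 and 3 were left out in turn (adjusted p up to 0.0101 and 0.0157). che-7 was not called in 6 of the 8 fits that left out 1 array, any array but pan-neural replicates 2 and 3 (adjusted p up to 0.0246). Innexins called higher numbered 2 without pan-neural replicates 1 and 3.

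Among signalling genes, 62 of 253 were higher (24.5%) and 5 were lower. Guanylate cyclases and other genes of cGMP signalling, which sensory neurons use to turn stimuli into current, were higher for 10 of 48. gcy-33, a soluble cyclase of oxygen-sensing neurons, was at 309.8, 259 and 364 on the pan-neural arrays and at 66.2, 58.1, 58.9, 61.9 and 63.2 on the references (log2 change 2.32 ± 0.12, adjusted p = 7.57e-06). gcy-11, a receptor-type cyclase, was at 739.5, 499.6 and 916 on the pan-neural arrays and at 159.8, 206, 161, 219.9 and 165 on the references (log2 change 1.95 ± 0.20, adjusted p = 0.000197). Both stood above every reference, and gcy-28, bright in both groups, was not called (0.37 ± 0.22). Of 26 G protein subunits 7 were higher, several from a reference level near the floor. gpa-18, an alpha subunit, was at 213, 145 and 258 on the pan-neural arrays and at 26.9, 37.6, 36.9, 25.8 and 34.9 on the references (log2 change 2.64 ± 0.20, adjusted p = 4.65e-05). gpc-1, a gamma subunit, was at 97.7, 113 and 136 on the pan-neural arrays and at 20.3, 22.2, 16.4, 24.2 and 21.3 on the references (log2 change 2.47 ± 0.15, adjusted p = 1.44e-05). The alpha subunit gpa-2 changed by 1.88 ± 0.11, and gpa-12, of the G12 class, was the one called lower (-0.64 ± 0.10). The second gamma subunit, gpc-2, which most cells make, was not called (0.98 ± 0.28). gpa-12 lost its call in 1 fit or more as pan-neural replicates 1 and 3 were left out in turn (adjusted p up to 0.0163). The cGMP signalling genes called higher numbered 6 without pan-neural replicate 3 and reference 2.

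Regulators of G proteins and their effectors were higher for 10 of 31 genes. rgs-2 was at 1047, 1055 and 1363 on the pan-neural arrays and at 347, 299, 399, 229.8 and 328 on the references (log2 change 1.86 ± 0.18, adjusted p = 0.000133), and its relative rgs-1 changed by 1.67 ± 0.23. Both genes shorten signals of alpha subunits and both stood apart from the references. The protein kinase C gene pkc-2 was read differently by its probe sets. Its brightest was not called (0.62 ± 0.23), and 2 others were called (log2 change 2.23 ± 0.12, adjusted p = 9.22e-06, and log2 change 2.19 ± 0.14, adjusted p = 1.82e-05), while the remaining 3 gave changes of -0.25 to -0.01 and were not called. Calcium signalling genes were higher for 10 of 35. cal-4, which is related to calmodulin, was at 524, 457 and 766 on the pan-neural arrays and at 56.5, 82.0, 56.5, 125 and 124 on the references (log2 change 2.77 ± 0.31, adjusted p = 0.000357). ncx-4, a sodium-calcium exchanger, was at 507, 580.2 and 796 on the pan-neural arrays and at 91.8, 128, 132, 157 and 183 on the references (log2 change 2.19 ± 0.22, adjusted p = 0.000206). The calcium pump of the endoplasmic reticulum, sca-1, which is abundant in muscle, was not called (-0.45 ± 0.13).

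Globins, of which this worm has many more than vertebrates, were among the families with the largest share higher, at 15 of 30 genes (50%) and a median of 0.73. glb-18 was at 431, 306 and 556 on the pan-neural arrays and at 96.4, 97.9, 86.5, 89.2 and 129.6 on the references (log2 change 2.08 ± 0.20, adjusted p = 0.000134). glb-22 was at 267, 191 and 256 on the pan-neural arrays and at 63.0, 62.6, 61.1, 71.1 and 65.9 on the references (log2 change 1.86 ± 0.12, adjusted p = 2.02e-05). glb-23 was at 212, 198 and 237 on the pan-neural arrays and at 71.5, 72.0, 72.2, 80.6 and 69.3 on the references (log2 change 1.56 ± 0.09, adjusted p = 1.44e-05). In all 3 the groups were far apart relative to their spread, and the brightest globin, glb-1, was not called (-0.25 ± 0.23). Several carbonic anhydrases, which interconvert carbon dioxide and bicarbonate, were also higher. cah-2 was at 346, 390.2 and 457 on the pan-neural arrays and at 100.4, 116, 104, 97.4 and 128 on the references (log2 change 1.86 ± 0.13, adjusted p = 2.44e-05), followed by cah-1 (1.67 ± 0.15), cah-6 (1.57 ± 0.18) and, outside the rule, cah-3 (0.76 ± 0.09), whereas cah-4 (-0.34 ± 0.20) and cah-5 (-0.16 ± 0.14) were not called. In the same list cysl-2, a cysteine synthase family member that the hypoxia factor HIF-1 induces, was lower, with 247, 382 and 285 on the pan-neural arrays and 912, 1336, 1151, 1120 and 672 on the references (log2 change -1.75 ± 0.23, adjusted p = 0.00075). Globins called higher numbered 9 without pan-neural replicate 3.

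Genes of the dauer TGF-beta pathway, by which sensory neurons report on food and crowding, and of insulin receptor signalling were higher for 5 of 29 and lower for 1. The shares were 17.2% and 3.45%, against 6.77% and 3.64% of all genes. The type I receptor daf-1 was at 580.4, 375 and 549.8 on the pan-neural arrays and at 199, 207, 245, 249.6 and 277 on the references (log2 change 1.07 ± 0.17, adjusted p = 0.00211). unc-129, a TGF-beta ligand that guides motor axons, was at 124, 158 and 209 on the pan-neural arrays and at 60.2, 76.6, 50.1, 66.6 and 71.8 on the references (log2 change 1.32 ± 0.19, adjusted p = 0.00128). The remaining increases were those of the Smad gene daf-3 (0.94 ± 0.19) and, named after their values were seen, the ligands daf-7 (0.86 ± 0.13) and tig-2 (0.88 ± 0.12). The gene called lower was sma-3, a Smad of the pathway that sets body size (-0.74 ± 0.13). daf-12, a nuclear receptor downstream of dauer signals, was not called (-0.19 ± 0.16), and none of 12 heterochronic genes was called in limma, where 2 had an increase and 1 a decrease at an unadjusted p under 0.05. daf-1, daf-7 and sma-3 lost their calls in 1 fit or more as pan-neural replicates 1 and 3 and reference 2 were left out in turn (adjusted p up to 0.015, 0.011 and 0.0136). daf-3 was not called in 7 of the 8 fits that left out 1 array, any array but reference 5 (adjusted p up to 0.0431). Dauer TGF-beta and insulin pathway genes called higher numbered 3 without pan-neural replicate 1 and 2 without pan-neural replicate 3.

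Chemoreceptors made up the largest group and gave few calls, and many of them were dim in both groups. Of 1276 chemoreceptor genes 28 were higher (2.19%, against 6.77% of all genes), and none was lower in limma (7 at an unadjusted p under 0.05). Near the floor in both groups were 634 of them. Among all genes with a mean log2 intensity under 5, 1.22% were higher. By superfamily, 8 of 572 were higher in the str, srh and sri group (1.4%) and 4 of 125 in the sra group (3.2%). In the srg group 10 of 300 were higher (3.33%) and in the solo families 6 of 279 (2.15%). odr-10, the receptor for diacetyl in the paired AWA olfactory neurons, was at 338, 214 and 478 on the pan-neural arrays and at 75.8, 60.1, 82.5, 76.2 and 57.9 on the references (log2 change 2.22 ± 0.24, adjusted p = 0.000266). srd-23 was at 573, 378 and 529 on the pan-neural arrays and at 136, 143, 156, 185 and 143 on the references (log2 change 1.68 ± 0.16, adjusted p = 0.000118). srx-45 was at 121, 109.8 and 148 on the pan-neural arrays and at 45.7, 55.6, 50.1, 49.4 and 49.98 on the references (log2 change 1.32 ± 0.11, adjusted p = 8.35e-05). The largest change of the str, srh and sri group was that of odr-10 and the largest of the srg group that of srx-45. In the solo families the largest was 1.07. odr-10, srd-23 and srx-45 were separate on every array, as were srt-42 (1.26 ± 0.17), srv-7 (1.22 ± 0.12) and srj-21 (0.90 ± 0.11). The 4 of the sra group were srab-14 (0.99 ± 0.17), srab-4 (0.97 ± 0.13), sra-10 (0.93 ± 0.16) and, outside the rule, sre-14 (0.72 ± 0.15). srab-14 and sra-10 lost their calls in 1 fit or more as pan-neural replicates 1 and 3 and reference 2 were left out in turn (adjusted p up to 0.0149 and 0.0169). sre-14 was not called in 7 of the 8 fits that left out 1 array, any array but pan-neural replicate 2 (adjusted p up to 0.0275). The str, srh and sri chemoreceptors called higher numbered 4 without pan-neural replicate 3 and references 1, 2 and 4 and 5 without references 3 and 5. The sra-group chemoreceptors called higher numbered 1 without pan-neural replicate 3 and 2 without reference 2. The srg-group chemoreceptors called higher numbered 5 without pan-neural replicate 3 and 6 without reference 2. Solo chemoreceptors called higher numbered 3 without pan-neural replicate 3.

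Transcription factors were higher for 49 of 467 genes (10.5%) and lower for 2. The LIM homeobox gene lin-11, which acts in interneurons and in the developing vulva and uterus, was at 392, 350.5 and 418 on the pan-neural arrays and at 59.4, 58.8, 101, 51.3 and 99.7 on the references (log2 change 2.44 ± 0.24, adjusted p = 0.000158). The other LIM gene called was mec-3 of the touch neurons (1.32 ± 0.19), and ttx-3 of the AIY interneuron was not called (0.66 ± 0.15). Of 24 POU, paired and cut homeobox genes 8 were higher. unc-42, of the paired class and active in command interneurons, was at 250.4, 219 and 344 on the pan-neural arrays and at 57.7, 68.8, 76.2, 84.8 and 71.5 on the references (log2 change 1.90 ± 0.17, adjusted p = 8.87e-05). unc-4, which sets the inputs of A-class motor neurons, was at 221, 227 and 305 on the pan-neural arrays and at 90.7, 79.9, 80.8, 94.0 and 111 on the references (log2 change 1.45 ± 0.15, adjusted p = 0.000192). ceh-36, an Otx gene of chemosensory neurons, was at 130, 136 and 154 on the pan-neural arrays and at 45.99, 45.4, 48.9, 51.6 and 49.96 on the references (log2 change 1.53 ± 0.09, adjusted p = 1.44e-05). The references of these genes lay within a narrow range and below every pan-neural array. None of 6 Hox genes was called in limma, where 0 had an increase and 1 a decrease at an unadjusted p under 0.05, and the brightest was nob-1 (0.02 ± 0.21). Among 75 other homeobox genes 15 were higher, including the Six-class ceh-32 (1.44 ± 0.17), and the broadly used Hox cofactor ceh-20 was not called (0.41 ± 0.18). mec-3 lost its call without pan-neural replicate 1 (adjusted p = 0.0108). POU, paired and cut homeobox genes called higher numbered 4 without pan-neural replicate 3 and 5 without reference 2. Other homeobox genes called higher numbered 7 without pan-neural replicate 3.

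Outside the homeobox genes, single members of several families were higher. unc-3, the COE factor of cholinergic motor neurons, was at 356, 328 and 417 on the pan-neural arrays and at 106, 103, 128, 106 and 186 on the references (log2 change 1.57 ± 0.20, adjusted p = 0.000633). ast-1, an ETS factor that dopamine neurons need, was at 266, 272 and 297 on the pan-neural arrays and at 64.7, 67.2, 107, 66.5 and 90.1 on the references (log2 change 1.84 ± 0.17, adjusted p = 0.000133). fkh-8, the only forkhead gene called among 13, was at 721, 456 and 687 on the pan-neural arrays and at 143, 133, 154, 121.8 and 134 on the references (log2 change 2.15 ± 0.16, adjusted p = 3.32e-05). The groups were apart for all 3. sox-2, a SoxB factor of progenitors and some neurons, was at 865, 813 and 908 on the pan-neural arrays and at 262, 237, 384, 248 and 367 on the references (log2 change 1.55 ± 0.18, adjusted p = 0.000375). The bHLH and COE list had 6 of 33 genes higher, with hlh-13 (1.56 ± 0.14) and hlh-34 (1.00 ± 0.14) next after unc-3. The list of zinc finger and other factors had 6 of 46 higher, and the SOX and HMG list 3 of 13, namely sox-2, hmg-6 (1.18 ± 0.16) and hmg-11 (1.05 ± 0.19). Of 259 nuclear hormone receptors 13 were higher (5.02%), near the share of all genes, with nhr-51 (1.06 ± 0.14) and nhr-167 (1.47 ± 0.24) among the leaders, and nhr-49 of fat metabolism was not called (0.48 ± 0.13). Both factors called lower belong to the epidermal list. blmp-1 was at 176, 289 and 203 on the pan-neural arrays and at 667, 636, 665, 414 and 519.8 on the references (log2 change -1.39 ± 0.20, adjusted p = 0.00152), and lin-26, which epidermal and glial cells need, changed by -0.93 ± 0.15. hmg-11, blmp-1 and lin-26 lost their calls in 1 fit or more as pan-neural replicates 1 and 3 and reference 5 were left out in turn (adjusted p up to 0.0246, 0.0111 and 0.0151). Zinc finger and other factors called higher numbered 1 without pan-neural replicate 1, 3 without references 2 and 3 and 2 without pan-neural replicate 3. Nuclear hormone receptors called higher numbered 7 without pan-neural replicate 3.

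**Figure D4:**
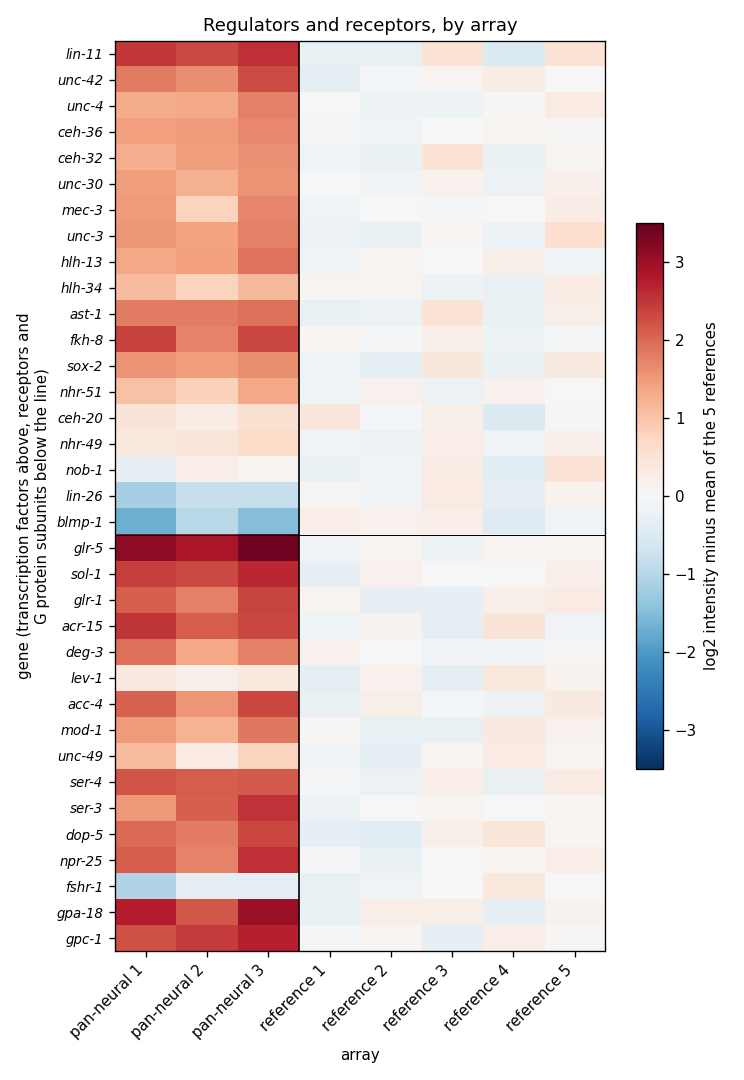
Log2 intensity minus the mean of the 5 larval references for transcription factors, receptors and G protein subunits named in the text, 1 row a gene and 1 column an array, with the 3 larval pan-neural arrays left of the 5 larval references. Red is higher and blue lower; the rows of blmp-1 and lin-26 are blue on all 3 pan-neural arrays and those of lin-11, unc-42, glr-5 and gpa-18 red.

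Genes that wire the nervous system were higher for 50 of 201 (24.9%) and lower for 6. Of 14 genes of netrin and Slit guidance 4 were higher. The netrin gene unc-6 was at 1595, 1194 and 1326 on the pan-neural arrays and at 478, 432, 525, 417 and 630.4 on the references (log2 change 1.47 ± 0.15, adjusted p = 0.000236). madd-4, a secreted protein that motor neurons use at their synapses onto muscle, was at 3908, 2681 and 3652 on the pan-neural arrays and at 835, 812, 724, 896 and 1116 on the references (log2 change 1.96 ± 0.17, adjusted p = 7.36e-05). Both were bright and separate, although another probe set of madd-4 gave -0.69 ± 0.37 without a call. The others were unc-129, given above, and eva-1, a receptor of the Slit pathway (0.99 ± 0.18), which was named after its value was seen. Of 10 ephrin, semaphorin and plexin genes 2 were higher, the plexin plx-2 (1.25 ± 0.15) and the ephrin efn-4 (0.75 ± 0.12). Of 19 Wnt pathway genes 2 were higher, the flamingo cadherin fmi-1 (1.36 ± 0.20) and the Frizzled gene cfz-2 (0.98 ± 0.17), and the Frizzled gene mom-5 was not called (0.11 ± 0.13). efn-4 and cfz-2 lost their calls in 1 fit or more as pan-neural replicates 1 and 3 and reference 2 were left out in turn (adjusted p up to 0.012 and 0.0242). eva-1 was not called in 4 of the 8 fits that left out 1 array, pan-neural replicates 1, 2 and 3 and reference 2 (adjusted p up to 0.0265).

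Adhesion proteins moved both ways, with 19 of 87 higher and 5 lower. oig-1, a small protein with a single immunoglobulin domain, was at 779, 658 and 735 on the pan-neural arrays and at 146, 161, 109.6, 136 and 186 on the references (log2 change 2.31 ± 0.16, adjusted p = 2.63e-05). casy-1, the calsyntenin, was at 1897, 1596 and 1655 on the pan-neural arrays and at 331, 298, 472, 476 and 707 on the references (log2 change 1.97 ± 0.25, adjusted p = 0.00071). lron-5, a leucine-rich repeat protein, changed by 2.03 ± 0.14. All 3 were above the references on every array, which the rule for named genes required. cdh-10, a cadherin, was at 142, 163 and 190.3 on the pan-neural arrays and at 401, 374, 363, 492 and 288 on the references (log2 change -1.21 ± 0.17, adjusted p = 0.00118). zig-7, with immunoglobulin domains, was at 165, 242 and 176 on the pan-neural arrays and at 364, 420.5, 528, 485 and 413 on the references (log2 change -1.19 ± 0.16, adjusted p = 0.000949). These lay below every reference, as did zig-12 (-1.21 ± 0.26) and, outside the rule, lron-9 (-0.87 ± 0.14) and cdh-3 (-0.77 ± 0.12). Within the zig family zig-5 (1.51 ± 0.24), zig-2 (0.91 ± 0.19) and zig-4 (0.71 ± 0.14), named after their values were seen, stood higher and zig-7 and zig-12 lower. cdh-3 and zig-5 lost their calls in 1 fit or more as pan-neural replicates 1 and 3 were left out in turn (adjusted p up to 0.0151 and 0.0148). zig-12, zig-2 and zig-4 were not called in 6 to 7 of the 8 fits that left out 1 array, any array but pan-neural replicate 2 (adjusted p up to 0.0492, 0.0505 and 0.0232). Adhesion genes called higher numbered 12 without pan-neural replicate 1 and 9 without pan-neural replicate 3. Adhesion genes called lower numbered 3 without pan-neural replicates 1 and 3 and 8 without pan-neural replicate 2.

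The axonal cytoskeleton and the JNK and kinesin transport pathway were higher through several linked members. ptl-1, the tau-like microtubule-binding protein, was at 1039, 967 and 1063 on the pan-neural arrays and at 225, 191, 229.7, 110.3 and 203 on the references (log2 change 2.46 ± 0.22, adjusted p = 0.000102). unc-104, the kinesin-3 motor of synaptic vesicle precursors, was at 1096, 977 and 1447 on the pan-neural arrays and at 399, 301, 358, 253 and 419.6 on the references (log2 change 1.77 ± 0.19, adjusted p = 0.000276). jkk-1, the kinase that activates JNK, was at 407, 490.1 and 606 on the pan-neural arrays and at 133, 108, 134, 116 and 139.5 on the references (log2 change 1.98 ± 0.14, adjusted p = 3.39e-05). In all 3 the lowest pan-neural array was more than 2-fold above the highest reference. jnk-1 itself was at 1168, 1134 and 1048 on the pan-neural arrays and at 556, 361, 454, 285 and 416 on the references (log2 change 1.46 ± 0.19, adjusted p = 0.000777). Its scaffolds jip-1 (1.43 ± 0.13) and unc-16 (0.72 ± 0.15), and the kinesin light chain klc-2 (0.63 ± 0.08), were also higher and were named after their values were seen, although the 3 dimmer probe sets of jip-1 gave -0.10 ± 0.15, 0.08 ± 0.15 and 0.03 ± 0.20 without a call. The neuronal polarity kinase sad-1 (1.56 ± 0.22) and the FEZ family protein unc-76 (1.41 ± 0.20) were higher, and the conventional kinesin unc-116, which all cells use, was above every reference but not called (0.65 ± 0.17, adjusted p = 0.0281). Of 26 growth cone and cytoskeleton genes 10 were higher, and of 32 transport genes 11. unc-16 was not called in 7 of the 8 fits that left out 1 array, any array but reference 5 (adjusted p up to 0.051). Growth cone and cytoskeleton genes called higher numbered 5 without pan-neural replicate 3. Transport genes called higher numbered 7 without pan-neural replicate 3.

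Tubulin genes, which provide microtubules to every cell, held 3 members that were higher and 1 that was lower. The shares were 21.4% and 7.14%, against 6.77% and 3.64% of all genes. tba-9, an alpha-tubulin of ciliated and other neurons, was at 357, 332 and 472 on the pan-neural arrays and at 171, 179, 159, 214 and 192 on the references (log2 change 1.07 ± 0.14, adjusted p = 0.000851). tba-4 was at 181, 359 and 245 on the pan-neural arrays and at 669.9, 836, 577, 1228 and 578 on the references (log2 change -1.57 ± 0.29, adjusted p = 0.00488). The first lay above and the second below all references. tbb-4 (0.92 ± 0.17) and tba-6 (0.61 ± 0.12) were higher too, and the most abundant, tba-2, was not called (0.26 ± 0.18) among 14 genes. tba-4 lost its call in 1 fit or more as pan-neural replicates 1 and 3 and reference 2 were left out in turn (adjusted p up to 0.0264). tbb-4 and tba-6 were not called in 6 to 7 of the 8 fits that left out 1 array, any array but pan-neural replicate 2 (adjusted p up to 0.0248 and 0.0388).

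**Figure D5:**
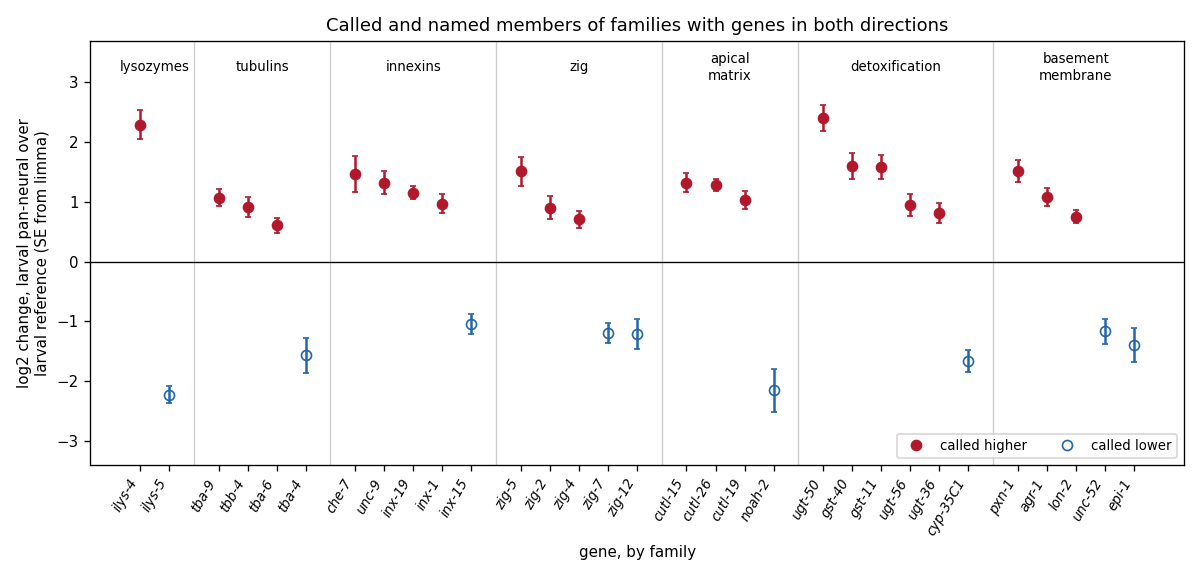
Log2 change, larval pan-neural over larval reference, with SE from the limma fit, for chosen called members of 7 families that held genes in both directions. The choice does not give the balance of the lists. Detoxification enzymes had 5 higher and 30 lower, and cuticlin, moulting and apical matrix genes 3 and 13, where sym-1 is not drawn. Filled circles mark genes called higher and open circles genes called lower; the line at 0 marks no change, and the lysozymes ilys-4 (2.29) and ilys-5 (-2.22) lie farthest apart.

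Machinery that every cell needs gave few calls. Of 379 genes of RNA binding, folding, protein turnover, translation, respiration and stress 4 were higher (1.06%) and 10 were lower (2.64%). None of 31 proteasome genes was called in limma, where 1 had an increase and 5 a decrease at an unadjusted p under 0.05, and none of 19 vacuolar ATPase genes, with 1 and 5 at that p. Of 62 ribosomal protein genes 1 was lower, rpl-11.1 (-0.91 ± 0.17), and the bright rpl-31 was not called (0.06 ± 0.08). Of 66 respiratory genes 1 was lower, sdha-2 (-0.79 ± 0.14), and the bright cytochrome c gene cyc-2.1 was not called (0.16 ± 0.08). The respiratory list had a median of -0.23, with 1 increase and 21 decreases at an unadjusted p under 0.05 in limma. Translation genes had 1 and 22 at that p. The 3 lower among 72 translation genes were iff-1, an eIF5A gene used in the germline (-1.50 ± 0.23), eif-3.K (-0.64 ± 0.12) and dhrs-4, a dehydrogenase that the list held although it is no translation factor (-1.02 ± 0.20). Chaperones lower were hsp-12.1 (-1.42 ± 0.22), pdi-1 (-0.89 ± 0.16) and 2 cyclophilins, cyn-5 (-1.25 ± 0.19) and, outside the rule, cyn-7 (-0.71 ± 0.12). cyn-5 was at 1126, 1650 and 1506 on the pan-neural arrays and at 3427, 4395, 2880, 3714 and 2617 on the references (log2 change -1.25 ± 0.19, adjusted p = 0.00173). The chaperones higher were dnj-8 (0.75 ± 0.10) and dnj-25 (0.77 ± 0.15), of the DnaJ family. prdx-2, a peroxiredoxin, was at 2894, 2938 and 3143 on the pan-neural arrays and at 4587, 5019, 5024, 5605 and 4357 on the references (log2 change -0.71 ± 0.10, adjusted p = 0.00133). It was lower and even, and trx-1, the thioredoxin of the ASJ sensory neurons, was the stress gene called higher, from a level near the floor (1.33 ± 0.16). Of 30 RNA-binding proteins 1 was higher, the Musashi homologue msi-1 (1.01 ± 0.20). iff-1, hsp-12.1 and cyn-7 lost their calls in 1 fit or more as pan-neural replicates 1 and 3 and reference 2 were left out in turn (adjusted p up to 0.0135, 0.0149 and 0.0226). rpl-11.1, sdha-2, eif-3.K, dhrs-4, pdi-1, dnj-25 and msi-1 were not called in 5 to 7 of the 8 fits that left out 1 array, any array (adjusted p up to values between 0.0219 and 0.041). Chaperone genes called lower numbered 1 without pan-neural replicates 1 and 3 and 2 without reference 2.

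Tissues outside the nervous system supplied most of the decreases that fell in a list. Of 1782 genes of these lists 158 were lower (8.87%, against 3.64% of all genes) and 25 were higher (1.40%). Of 38 body wall muscle genes 2 were lower, with a median of -0.62, while 27 had a decrease and 0 an increase at an unadjusted p under 0.05, and the count lower was 0 to 12 as arrays were left out in turn, with 12 without pan-neural replicate 2. The called genes were unc-52, the basement membrane perlecan (-1.16 ± 0.21), and the actin-severing gene unc-60 (-0.92 ± 0.18), other probe sets of which gave 0.51 ± 0.16, 0.22 ± 0.10, 0.34 ± 0.25 and -0.26 ± 0.15. The brightest not called was the troponin C gene pat-10 (-0.44 ± 0.16). Of 75 pharynx genes 3 were lower (4.0%, near the share of all genes) and 1, pqn-70, higher (1.03 ± 0.18). phat-4, of a gland gene family of the pharynx, was at 132, 174 and 106 on the pan-neural arrays and at 297, 358, 299.9, 426 and 466 on the references (log2 change -1.43 ± 0.20, adjusted p = 0.00116), next to pqn-25 (-1.15 ± 0.17) and phat-8 (-1.03 ± 0.20). pqn-70 and pqn-25 lost their calls in 1 fit or more as pan-neural replicates 1 and 3 and reference 2 were left out in turn (adjusted p up to 0.0227 and 0.0115). unc-52, unc-60 and phat-8 were not called in 4 to 6 of the 8 fits that left out 1 array, any array but pan-neural replicate 2 (adjusted p up to 0.0174, 0.0367 and 0.0373). Pharynx genes called lower numbered 9 without pan-neural replicate 2.

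Intestinal enzymes and immune effectors were lower for 28 of 97 genes (28.9%) and higher for 2, with a median of -0.55. Lysozymes of the invertebrate type went in opposite directions. ilys-4 was at 838, 808 and 1364 on the pan-neural arrays and at 183, 161, 153, 252 and 272 on the references (log2 change 2.29 ± 0.24, adjusted p = 0.000247). ilys-5 was at 568, 830 and 804 on the pan-neural arrays and at 3889, 3328, 3301, 3397 and 3028 on the references (log2 change -2.22 ± 0.14, adjusted p = 1.67e-05). Both groups of arrays were clearly apart in each gene. The cathepsin B gene cpr-5 was at 603, 1138 and 823 on the pan-neural arrays and at 2173, 2714, 2483, 3694 and 2003 on the references (log2 change -1.63 ± 0.24, adjusted p = 0.00152), and the saposin-like gene spp-24 was the other one higher (0.69 ± 0.14). The lipid-binding protein far-1, among the brightest, was not called (-0.18 ± 0.09). Lipid metabolism genes were lower for 17 of 114, with the acyl-CoA synthetase acs-14 at 192, 328 and 295 on the pan-neural arrays and at 677, 806, 563, 634 and 701 on the references (log2 change -1.34 ± 0.18, adjusted p = 0.000996). Fatty acid synthase, fasn-1, changed by -1.60 ± 0.28, and the single gene higher was dhs-17 (1.25 ± 0.22). spp-24, fasn-1 and dhs-17 were not called in 4 to 6 of the 8 fits that left out 1 array, any array but pan-neural replicate 2 (adjusted p up to 0.0371, 0.0165 and 0.026). Intestinal genes called lower numbered 15 without pan-neural replicate 1 and 11 without pan-neural replicate 3. Lipid metabolism genes called lower numbered 3 without pan-neural replicate 1, 5 without reference 2 and 4 without pan-neural replicate 3.

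Detoxification enzymes, a class of oxidizing and conjugating proteins made largely in the intestine, were lower for 30 of 198 and higher for 5. cyp-35C1, a cytochrome P450, was at 258, 319 and 346 on the pan-neural arrays and at 806, 953, 1397, 892 and 854 on the references (log2 change -1.66 ± 0.18, adjusted p = 0.000325). ugt-50, a glucuronosyl transferase, was at 2563, 1833 and 2411 on the pan-neural arrays and at 315, 374, 372, 596 and 534 on the references (log2 change 2.40 ± 0.22, adjusted p = 0.000109). gst-40, a glutathione transferase, was at 407, 187 and 290.2 on the pan-neural arrays and at 82.8, 91.2, 92.7, 107 and 90.0 on the references (log2 change 1.60 ± 0.21, adjusted p = 0.000935). The first was below and the others above every reference, and dimmer probe sets of ugt-50 gave -0.58 ± 0.14 and 0.57 ± 0.15 without a call. gst-11 (1.58 ± 0.20) and, outside the rule, ugt-56 (0.95 ± 0.18) and ugt-36 (0.81 ± 0.16) completed the genes called higher. C-type lectins were lower for 14 of 220 and higher for none in limma (6 at an unadjusted p under 0.05), with clec-186 at 238, 334 and 291 on the pan-neural arrays and at 771, 919, 961, 994.9 and 623 on the references (log2 change -1.56 ± 0.17, adjusted p = 0.000333). ugt-56 and ugt-36 were not called in 6 of the 8 fits that left out 1 array, any array but pan-neural replicate 2 (adjusted p up to 0.0197 and 0.0415). Detoxification enzymes called higher numbered 3 without pan-neural replicates 1 and 3 and references 2, 4 and 5. Detoxification enzymes called lower numbered 14 without pan-neural replicates 1 and 3 and 17 without reference 2. C-type lectins called lower numbered 5 without pan-neural replicate 3 and reference 2, 9 without reference 4 and 8 without pan-neural replicate 1.

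Among epidermal genes, the secreted peptide and matrix lists had shares called lower above that of all genes (3.64%), and the collagen and hedgehog-related lists had shares near it. At an unadjusted p under 0.05 in limma, collagens had 39 decreases and 0 increases, and hedgehog-related and patched-related genes had 32 and 3. All 17118 genes had 2799 decreases and 2592 increases at that p. Cuticle collagens were lower for 7 of 148 (4.73%), and dpy-3 was at 134, 171 and 201 on the pan-neural arrays and at 1204, 794, 534, 1276 and 412 on the references (log2 change -2.21 ± 0.36, adjusted p = 0.00288). The abundant collagen col-93 was not called (0.01 ± 0.18). Cuticlin, moulting and apical matrix genes were lower for 13 of 104 and higher for 3. noah-2, an apical matrix protein, was at 175, 273 and 380 on the pan-neural arrays and at 2109, 1091, 822, 1539 and 753 on the references (log2 change -2.15 ± 0.36, adjusted p = 0.00316). The 3 higher were cuticlin-like genes, and cutl-26 was at 604, 497 and 562 on the pan-neural arrays and at 196, 225, 236, 242 and 237 on the references (log2 change 1.29 ± 0.11, adjusted p = 6.81e-05), beside cutl-15 (1.32 ± 0.15) and cutl-19 (1.04 ± 0.15). Of 83 hedgehog-related and patched-related genes 3 were lower (3.61%), wrt-10 (-2.39 ± 0.37), ptr-1 (-1.39 ± 0.29) and ptr-10 (-1.18 ± 0.24). Epidermal antimicrobial and transthyretin-like genes were lower for 21 of 61 (34.4%) and higher for none in limma (3 at an unadjusted p under 0.05), for example the caenacin cnc-3 (-2.37 ± 0.42) and ttr-26 (-1.63 ± 0.27). dpy-3, noah-2 and ttr-26 lost their calls in 1 fit or more as pan-neural replicates 1 and 3 and reference 2 were left out in turn (adjusted p up to 0.0192, 0.0187 and 0.018). ptr-1, ptr-10 and cnc-3 were not called in 5 to 7 of the 8 fits that left out 1 array, any array (adjusted p up to 0.0476, 0.0404 and 0.0242). Cuticle collagens called lower numbered 0 without pan-neural replicate 1, 11 without pan-neural replicate 2 and reference 5 and between 1 and 3 without pan-neural replicate 3 and references 2 and 4. Hedgehog-related and patched-related genes called lower numbered 8 without reference 5. Cuticlin, moulting and apical matrix genes called lower numbered 3 without pan-neural replicate 1, 8 without reference 1 and between 5 and 7 without pan-neural replicate 3 and reference 2. Epidermal antimicrobial and transthyretin-like genes called lower numbered 5 without pan-neural replicate 3, 11 without reference 3 and between 7 and 10 without pan-neural replicate 1 and reference 2.

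Basement membrane genes, which form sheets under epithelia and around muscle, had 3 members higher (13.6%) and 2 lower (9.09%). pxn-1, a peroxidasin, was at 346, 398 and 474 on the pan-neural arrays and at 122.2, 151, 108, 191 and 139.9 on the references (log2 change 1.53 ± 0.18, adjusted p = 0.000517). agr-1, the agrin, was at 104, 129 and 168 on the pan-neural arrays and at 52.3, 61.9, 65.5, 64.3 and 67.8 on the references (log2 change 1.08 ± 0.15, adjusted p = 0.00134). The glypican lon-2 was higher as well (0.76 ± 0.11), and the laminin alpha chain epi-1 (-1.39 ± 0.28) and the perlecan unc-52 were lower, among 22 genes. Of 49 proteoglycan and glycosylation genes 3 were higher, lon-2, gly-2 (0.84 ± 0.13) and gly-1 (0.82 ± 0.13), and 3 were lower, unc-52, gly-11 (-1.33 ± 0.20) and sqv-4 (-1.05 ± 0.22). The share was 6.12% in each direction, against 6.77% higher and 3.64% lower of all genes. Of 44 transporters eat-4 was higher, and the cation pump catp-3 and the sodium-proton exchanger nhx-3 (-1.22 ± 0.18) were lower, catp-3 with 68.6, 73.5 and 99.2 on the pan-neural arrays and 236, 229.9, 217, 152 and 209.7 on the references (log2 change -1.38 ± 0.17, adjusted p = 0.000632). In the list of glia, coelomocyte and excretory genes, ceh-6 (0.66 ± 0.13) and the coelomocyte channel gene lgc-26 (0.59 ± 0.12) were higher and ptr-10 and lin-26 lower, of 21 genes. The share was 9.52% in each direction there, and 2.27% higher and 4.55% lower among the transporters. lon-2, gly-2, gly-1, gly-11 and nhx-3 lost their calls in 1 fit or more as pan-neural replicates 1 and 3 were left out in turn (adjusted p up to values between 0.0108 and 0.0151). epi-1, sqv-4, ceh-6 and lgc-26 were not called in 6 to 7 of the 8 fits that left out 1 array, any array (adjusted p up to 0.0322, 0.049, 0.0252 and 0.0385). Basement membrane genes called lower numbered 5 without pan-neural replicate 2. Glia, coelomocyte and excretory genes called higher numbered 4 without pan-neural replicate 2.

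Genes of dividing and germline cells gave few calls, most of them lower. The shares lower were 11.4% of cell cycle and 10.5% of germline genes, against 3.64% of all genes. The replication helicase genes were lower, with mcm-5 at 122.3, 163 and 126 on the pan-neural arrays and at 326, 253, 228, 302 and 221 on the references (log2 change -0.95 ± 0.16, adjusted p = 0.00317), and mcm-4 (-1.07 ± 0.22) and mcm-3 (-0.92 ± 0.17) beside it. With mcm-2 (-0.74 ± 0.14) and the primase pri-1 (-0.60 ± 0.12), both outside the rule, 5 of 44 cell cycle genes were lower, and the survivin homologue bir-1 was higher (1.00 ± 0.15). Of 38 germline genes 4 were lower. The germ granule helicase glh-1 was at 118, 233 and 115 on the pan-neural arrays and at 691, 492, 391, 545 and 389 on the references (log2 change -1.74 ± 0.27, adjusted p = 0.00199), and the others were the meiotic axis gene him-3 (-2.11 ± 0.40), cpb-3 (-1.15 ± 0.18) and, outside the rule, the Argonaute wago-1 (-1.04 ± 0.14). Of 36 genes in the histone list his-41 (0.97 ± 0.10) and hsr-9, a DNA damage protein listed there (0.75 ± 0.15), were higher and hil-5 (-0.78 ± 0.14) and his-74 (-0.71 ± 0.12) lower. The share was 5.56% in each direction, against 6.77% higher and 3.64% lower of all genes. F-box, BTB and MATH genes, large families of ubiquitin ligase adaptors, gave few calls, with 3 higher and 5 lower of 432. The shares were 0.694% and 1.16%, against 6.77% and 3.64% of all genes. However, 269 of the 432 were near the floor in both groups, where calls were sparse for any gene. The higher were fbxa-24 (1.52 ± 0.18), fbxa-167 (0.90 ± 0.13) and fbxa-153 (0.68 ± 0.10), and the lower btb-14 (-0.94 ± 0.14), fbxa-105 (-0.74 ± 0.10), fbxa-101 (-0.75 ± 0.16) and, outside the rule, fbxa-157 (-0.69 ± 0.14) and math-22 (-0.63 ± 0.12). mcm-5, bir-1, glh-1, cpb-3, his-74 and btb-14 lost their calls in 1 fit or more as pan-neural replicates 1 and 3 and reference 2 were left out in turn (adjusted p up to values between 0.0121 and 0.0227). mcm-4, mcm-3, mcm-2, pri-1, him-3, hsr-9, hil-5, fbxa-101, fbxa-157 and math-22 were not called in 4 to 7 of the 8 fits that left out 1 array, any array (adjusted p up to values between 0.0228 and 0.0441). Cell cycle genes called lower numbered 0 without pan-neural replicates 1 and 3, 2 without references 2 and 4 and 1 without reference 5. Germline genes called lower numbered 1 without pan-neural replicates 1 and 3. F-box, BTB and MATH genes called lower numbered 1 without pan-neural replicates 1 and 3, 3 without reference 1 and 2 without reference 2.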

How the data were processed

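RNA of 8 samples was measured on Affymetrix C. elegans arrays, and the authors deposited RMA intensities on a linear scale. The titles number separate sets of arrays and put larval references 1 to 3 in set 1, but their median intensities of 61.95 to 62.5 lay among those of the larval arrays of set 2 (61.85 to 64.18) and above those of the embryonic arrays of set 1 (47.85 to 50.29), so the 8 arrays were treated as normalized together, which the sources used here do not state. RMA equalizes the distribution over arrays, so only relative changes are measured. The version of RMA was not given in the sources used here. The array records gave the occasion of hybridization and no expression values. Log2 of the deposited values was computed here, 77 control probe sets were left out, and limma 3.58.1 in R 4.3.3 (lmFit and eBayes) compared the groups with Benjamini-Hochberg adjustment over 22548 probe sets, at the study's thresholds of 1.5-fold and an adjusted p under 0.01. The methods' significance analysis of microarrays (SAM) was not run here, and limma took its place. The titles call the arrays biological replicates, and p-values measure the spread between them; their number limits the precision.

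Probe sets were named from the platform annotation, updated through the RefSeq gene table (assembly WBcel235). Of these probe sets 20766 had 1 gene, 887 several and 895 none, and only the first were named; 20701 matched the RefSeq table. Genes of one family may cross-hybridize. The 74 gene lists and 5 lists set aside were drawn up by name and family, with earlier results of these data known, and were not tested as sets; their counts are descriptions. Genes were named by rule, as the 10 largest changes in each direction and, from each list, up to 3 genes called in each direction whose groups did not overlap, and the brightest gene not called, beside the markers. In all 32 of the 273 genes named here fell outside that rule. The alternatives tried were a filter on dim probe sets, repeated normalization, another variance model, array weights, other thresholds, other probe sets of a gene, blocks for replicate number and hybridization batch, fewer references and each array left out. Simulated arrays, 3 against 5, had independent noise of equal size on every array and no hybridization batches. On them limma called 72 of 100 genes changed by 1 on the log2 scale and 99 of 100 changed by 2. It made 2 false calls. The real arrays had a within-batch correlation of 0.3751, so these rates may not hold for them. No sequences were used here, and a search of promoters for motifs was not run.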

Additional observations from a re-analysis of the deposited data

Results flagged for a closer look

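Of 273 genes named here, 15 had 1 of the 5 larval references far from the others, by a gap of more than 0.71 of the group's range. Chance flags about 1 in 20 groups. The RMA intensity of the distant reference is given with the range of the other 4.

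Reference 4 was the distant one in 8 genes. It was low in catp-3 at 152.3 (others 209.7 to 236.5), fbxa-153 at 40.6 (47.76 to 50.83), gly-2 at 334.0 (433.2 to 464.5) and ptl-1 at 110.3 (190.9 to 229.7). It was high in col-19 at 25.21 (18.38 to 20.02), glb-23 at 80.56 (69.31 to 72.19), inx-19 at 55.63 (42.64 to 45.87) and tbb-4 at 150.9 (99.28 to 107.4). Reference 1 was high in him-3 at 221.3 (101.3 to 119.5) and low in unc-52 at 454.0 (686.7 to 754.5). Reference 3 was low in epi-1 at 411.1 (580.3 to 611.0), hil-5 at 497.8 (626.8 to 658.2) and tdc-1 at 38.54 (44.62 to 46.69). Reference 2 was low in lev-10 at 903.1 (1041 to 1103), and reference 5 was high in ace-3 at 43.23 (30.84 to 32.89). In each of these genes but col-19, which was not called, the distant reference lay on the same side of all pan-neural arrays as the other references.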

How the results depend on the processing

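The counts of genes higher in larval pan-neural (1159) and genes lower in larval pan-neural (623) stayed within 1.5 times under both repeated normalizations, the filter on dim probe sets, the other variance model, array weights, batch as a random block and calls by any probe set. Leaving out each array in turn gave 782 to 1135 genes higher and 157 to 744 lower, with the fewest lower genes without pan-neural replicate 3 (157), pan-neural replicate 1 (192) and reference 2 (278). References 4 and 5 alone left 316 higher and 24 lower, and references 1 to 3 alone 385 lower. The batch as a fixed block, with the change taken from 1 batch of 4 arrays, left 330 and 34. Those 4 arrays alone, chosen after seeing the data, left 0 and 0 by limma's adjusted p (2128 and 2110 at an unadjusted p under 0.05). These fits used fewer arrays of a group or fewer residual degrees of freedom. A change of at least 2-fold left 769 and 369, an adjusted p under 0.05 gave 1328 lower, and without probe sets open to cross-hybridization 404 were lower. Without those probe sets 3 changes reversed, being read from others: ser-4 at -0.16, unc-60 at 0.34 and ugt-50 at -0.58, none of them called. No other called gene named here changed direction under any alternative.

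With the replicate number as a block 627 genes were higher and 189 lower. Deviations from the group means of arrays with the same number correlated at 0.149, 0.0784 and -0.2338. With few arrays and hybridization batches mixed in, these values cannot decide whether the numbers pair the samples. No pairing was assumed. Dim genes limit what could be called, since 27.5% of probe sets averaged below the floor. Of the called genes named here, 65 had another probe set above the floor, and 34 of these had one that was not called, in 4 with the opposite sign (madd-4, ugt-50, unc-60 and inx-1).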

Other observations

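Genes on the X chromosome were called higher more often than those on any autosome. Of 2352 X-linked genes 265 were higher (11.3%), against 5.74% to 6.68% on the autosomes, and 102 were lower (4.34%), against 2.92% to 3.95%. Without the peptide, synapse, touch and cilium lists the shares higher were 9.27% on X and 4.71% to 5.6% on the autosomes. These are descriptions, with no test.

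The lists set aside are given here by their counts only. Higher were 21 of 25 FMRFamide-like peptide genes, 90 of 130 other peptide and insulin-like genes, 35 of 53 genes of the synapse and peptide processing, 9 of 15 touch neuron genes and 37 of 72 genes of ciliated neurons, with 6 lower in all. Of 12048 genes in no list, 610 were higher (5.06%) and 434 were lower (3.6%).

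The 3′ probe set of the catalase control exceeded its 5′ probe set by 2.07 ± 0.41 on the log2 scale on the larval pan-neural arrays and by 2.86 ± 0.13 on the larval references (SD, n = 3 and 5, exact permutation test over 56 splits, two-sided p = 0.0179, the smallest the design allows, and 0.0716 after adjustment over 4 controls). For actin, Gapdh and ubiquitin the exact p was 0.393, 0.179 and 0.196 (0.393, 0.261 and 0.261 adjusted). The part of RNA length in the results was not tested.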
